A study of Mus musculus with 16 samples.

Results

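The receptor tyrosine kinases of the ErbB, Met and Kit families and their main ligands were examined in the embryonic mouse kidney. The 9 genes, chosen by name, were the 6 receptors Egfr, Erbb2, Erbb3, Erbb4, Met and Kit and the 3 ligands Nrg1, Hgf and Kitl. They were read by 23 of 45037 probe sets, and they are 9 of the 18193 genes that the array names through a single symbol. For each gene the probe set with the highest mean log2 signal over all 16 arrays was used, and its other probe sets were checked against it.

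All samples came from mouse embryos at E11.5. At this stage the ureteric bud (UB), the epithelium that later gives the collecting system, grows within the metanephric mesenchyme (MM), from which nephrons arise. The study compared these structures, and compared the mesenchyme of embryos null for both Hoxa11 and Hoxd11 with that of the wild type. The wild-type bud was sampled 4 times, with 3 to 9 buds pooled in each sample, and wild-type MM 3 times, each from an individual mesenchyme. Both kinds were separated by hand from kidney rudiments after collagenase B at 0.5 mg/ml. A further 4 wild-type MM samples were taken by laser capture, which lifts chosen areas off a section, from 7 µm sections of kidney rudiments, each pooling 3 to 4 mesenchymes. The last group held 5 samples of Hoxa11/Hoxd11 double null MM, laser-captured from 7 µm sections of whole urogenital ridges, so that the starting piece differed together with the genotype. For strain, litter, slide and scan date, nothing is given in the sources used here, and no number pooled is recorded for the null samples. The series text describes replicates as separate embryos. All values are MAS5 signals, a summary of probe brightness on a linear scale.

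Each of these receptors is switched on when a ligand brings receptor molecules together, and each then drives the Ras-MAPK and PI3K pathways. In the ErbB family, EGFR binds EGF-like ligands, ErbB3 and ErbB4 bind neuregulins, ErbB2 binds no known ligand, and ErbB3, whose own kinase is weak, signals through its partners. HGF, a product of mesenchymal cells, is secreted as an inactive precursor that surface serine proteases cleave before it can bind Met on epithelial cells, where it promotes tubule formation and branching. Kit ligand acts on Kit-bearing cells such as blood progenitors, mast cells, melanocytes and germ cells, and in the kidney Kit ligand of the ureteric bud and Kit of interstitial cells have been described.

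The groups were first checked against their labels. Hoxa11 ran from 91.8 to 197 in the null captures and from 526 to 840 in the wild-type captures (log2 difference -2.23 ± 0.34 SE, limma adjusted p = 0.0114), while Hoxd11 did not differ beyond its spread (-0.35 ± 0.35 SE, adjusted p = 0.635). Neither value checks the genotype by itself, since the position of these probe sets relative to the targeted exons is unknown here. The summed signal of 10 bud markers was 186565 to 231952 in UB, 3196 to 3749 in hand-dissected MM, 11622 to 63220 in wild-type captures and 16027 to 50508 in null captures. This sum was thus higher in every captured array than in hand-dissected mesenchyme. In the wild-type captures each of the 10 markers was also above the hand-dissected range, but in the null captures some were not. Calb1 read 79.4 in null capture 1 against 124 to 172 in hand-dissected MM. Wnt11 read 293 to 667 in the null captures against 477 to 608. The summed signal of 9 mesenchyme markers was 1698 to 2435 in UB and 17051 to 89474 over all MM arrays. RNA quality was read from the 3'/5' ratio of the Gapdh controls, which was 6.53 to 12.2 in UB, 22.1 to 69.3 in hand-dissected MM, 14.3 to 22.9 in wild-type captures and 18.4 to 26.3 in null captures. The same ratio for Actb was 10.9 to 16.3, 11.1 to 17.9, 14.8 to 20.9 and 17.5 to 27.6 in that order. The part of RNA quality in any difference below was not tested.

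Between bud and hand-dissected mesenchyme, Erbb3, Kitl, Met and Erbb2 were higher in the bud, in that order of size, and none of the 9 genes passed as lower. Of the 6 genes bright enough to be tested, 4 were called higher at an adjusted p below 0.05, where 13.9% of all 12435 tested genes were called higher, 14.6% lower and 28.5% in either direction. The arrays of the same 4 genes did not overlap between the groups, which held for 17.5% of all tested genes with UB higher, 18.8% with UB lower and 36.4% in all. Of these 6, 5 exceeded the median of their array in all 16 arrays and Erbb3 in 15, so the brightness filter did not choose their direction. These p-values set the difference between groups against the spread within them, among pools of 3 to 9 buds and among individual mesenchymes. In whole-tissue RNA, more cells of a kind and more transcript per cell cannot be told apart.

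The promoters of 3 of the 4 genes that were higher in the bud are shown because the data place their transcripts on the same side of the comparison. The RefSeq promoter table (GRCm38.p6) held 7 of the 9 genes, all but Erbb3 and Nrg1. The 250 bases upstream of the annotated start follow, 5′ to 3′ on the strand of the gene, with capitals marking GGGCGG on either strand, the GC box bound by Sp1-family factors.
Erbb2, chr11:98412234-98412483, + strand: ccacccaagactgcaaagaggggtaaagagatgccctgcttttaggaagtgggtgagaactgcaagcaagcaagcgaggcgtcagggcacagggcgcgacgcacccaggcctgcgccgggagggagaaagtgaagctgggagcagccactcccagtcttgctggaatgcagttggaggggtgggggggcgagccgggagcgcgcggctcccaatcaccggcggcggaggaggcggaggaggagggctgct
Met, chr6:17463707-17463956, + strand: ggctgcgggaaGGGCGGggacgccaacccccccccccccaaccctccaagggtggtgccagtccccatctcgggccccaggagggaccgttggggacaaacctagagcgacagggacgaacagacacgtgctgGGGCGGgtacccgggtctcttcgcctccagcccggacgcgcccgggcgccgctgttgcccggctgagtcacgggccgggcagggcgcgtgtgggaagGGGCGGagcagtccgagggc
Kitl, chr10:100015571-100015820, + strand: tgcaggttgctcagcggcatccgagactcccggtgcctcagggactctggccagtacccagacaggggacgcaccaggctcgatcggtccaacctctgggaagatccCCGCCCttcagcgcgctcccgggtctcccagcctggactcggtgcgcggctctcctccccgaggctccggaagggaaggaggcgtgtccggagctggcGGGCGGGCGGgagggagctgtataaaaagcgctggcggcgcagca

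Met and Kitl each held 3 matches to GGGCGG, and in Kitl 2 of them overlap, whereas Erbb2 held 0. This motif occurs in 32.7% of all 32851 promoter windows of this length. The TATA box letters TATAAA were found in Kitl and in neither Met nor Erbb2, against 12.4% of all windows. GCCNNNGGC, a site of AP-2 factors, was in none of the 3, against 13.7% of all windows. AGATAA, a site of the GATA family, was in 0 of the 9 windows of these genes, against 10.0% of all windows. Both strands were searched for each motif. The windows were rich in G and C, at 66.0% in Erbb2, 74.0% in Met and 69.2% in Kitl. These are matches of letters, and none of the arrays measured binding.

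Among the receptors, Erbb3, the neuregulin receptor, had the largest difference. Its signal in the 4 UB arrays was 19778, 25162, 22638 and 17563. In the 3 hand-dissected MM arrays it was 347, 397 and 500. Every bud array lay far above every mesenchyme array, so the groups did not overlap. The means were 21285 ± 3316 (SD, n = 4) and 414 ± 77.9 (SD, n = 3), a log2 difference of 5.56 ± 0.21 SE or 47.3-fold (limma adjusted p = 1.36e-08). A second Erbb3 probe set stayed at 4.5 to 110 on all 16 arrays and never exceeded the array median, so it carried no usable signal, and averaging both lowers the log2 difference to 2.40. Fold changes here are on the scale log2(signal + 36.3), which understates the change of dim genes.

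Erbb2, the preferred partner of ErbB3, was higher in the bud by a smaller amount. UB arrays read 1302, 2536, 2030 and 1455, and hand-dissected MM arrays 940, 980 and 806. The groups did not overlap, and the log2 difference was 0.94 ± 0.26 SE or 1.92-fold (limma adjusted p = 0.0214). The call was lost without UB replicate 2, UB replicate 3 or MM replicate 7 (adjusted p = 0.0564, 0.0694 and 0.0914). Against all 7 wild-type MM arrays the log2 difference was 0.49 (limma adjusted p = 0.269).

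Egfr, the receptor for EGF, TGF-alpha and related ligands, did not pass. On its brightest probe set UB arrays read 331, 270, 394 and 419, and MM arrays 232, 404 and 316. These ranges overlap and the log2 difference was 0.15, with a 95% interval from -0.42 to 0.72. Egfr had 7 probe sets, and the next brightest leaned the other way, at 204, 277, 306 and 54.7 in UB and 274, 582 and 931 in MM, with a log2 difference of -1.37 ± 0.48 (SE; limma adjusted p = 0.0594). The remaining tested ones differed by -0.54 and -0.06 (limma adjusted p = 0.391 and 0.899). No Egfr probe set passed, and the brightest one differed in sign from the other tested ones.

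Erbb4, the other neuregulin receptor, was not above the array median on any of the 16 arrays, with signals from 1.4 to 55.4. It was not tested, and no order of the groups can be read from such values.

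Met, the HGF receptor, was bright in both tissues and brighter in the bud. UB arrays read 12591, 11853, 10582 and 8408, and hand-dissected MM arrays 6681, 4527 and 4906. The lowest bud array lay above the highest mesenchyme array, and the log2 difference was 1.01 ± 0.21 SE or 2.02-fold (limma adjusted p = 0.00362). A second Met probe set was dim, at 7.8 to 134 over the 16 arrays. The mean of both probe sets gave a log2 difference of 0.60 that did not pass (adjusted p = 0.109).

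Kit, the receptor for Kit ligand, was present in both. UB arrays read 3324, 5424, 2454 and 1637, and MM arrays 1234, 2004 and 2607. The ranges overlap, and the log2 difference of 0.64 had a 95% interval from -0.19 to 1.47 (limma adjusted p = 0.251). Its second probe set gave 0.36, also without passing (adjusted p = 0.601).

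Of the ligands, Kitl was the bright one and the one called. UB arrays read 20529, 14042, 10388 and 11335, and hand-dissected MM arrays 2897, 1190 and 1701. All 4 bud arrays were above all 3 mesenchyme arrays, and the log2 difference was 2.89 ± 0.31 SE or 7.39-fold (limma adjusted p = 3.36e-05). Of its 3 other probe sets, 1 was above the array median on all 7 of these arrays and also higher in UB, by 2.99 ± 0.32 SE (limma adjusted p = 3.11e-05). Another was called higher, by 1.57 ± 0.29 SE (adjusted p = 0.00214), but at 24.9 to 48 was below the median of every MM array. It thus entered the test only through the bud arrays, at 146 to 177, and adds no support. The last one differed by -0.02 (adjusted p = 0.976), at 99.7 to 169 in UB and 53.7 to 200 in MM.

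Hgf, the Met ligand, was dim on all 3 of its probe sets, with 277 as the highest value among them on any array. The representative probe set read 12.9, 1.8, 3.0 and 16.4 in UB and 90.8, 60.1 and 277 in hand-dissected MM. The bud arrays were all below the mesenchyme arrays, but only 1 of these 7 exceeded the median of its array and the probe set was not tested. In a fit of all 45037 probe sets without the brightness filter its log2 difference was -1.82 ± 0.38 SE (limma adjusted p = 0.0101). One of the other probe sets, at 9.3 to 37.3 in UB and 43.9 to 90.3 in MM, was likewise apart, and the remaining one, at 30.5 to 85.1 and 42.8 to 113, overlapped.

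Nrg1, a neuregulin that binds ErbB3 and ErbB4, had 1 probe set, which exceeded the array median on 2 of 16 arrays. It read 39.6, 28.4, 85.2 and 70.5 in UB and 132, 91.5 and 272 in hand-dissected MM. The mesenchyme values were the higher ones without overlap, and without the filter the log2 difference of -1.07 ± 0.38 SE did not pass (limma adjusted p = 0.103). Hgf, Nrg1 and the receptor Erbb4 were thus the 3 genes read too dimly for a test here.

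**Figure D1:**
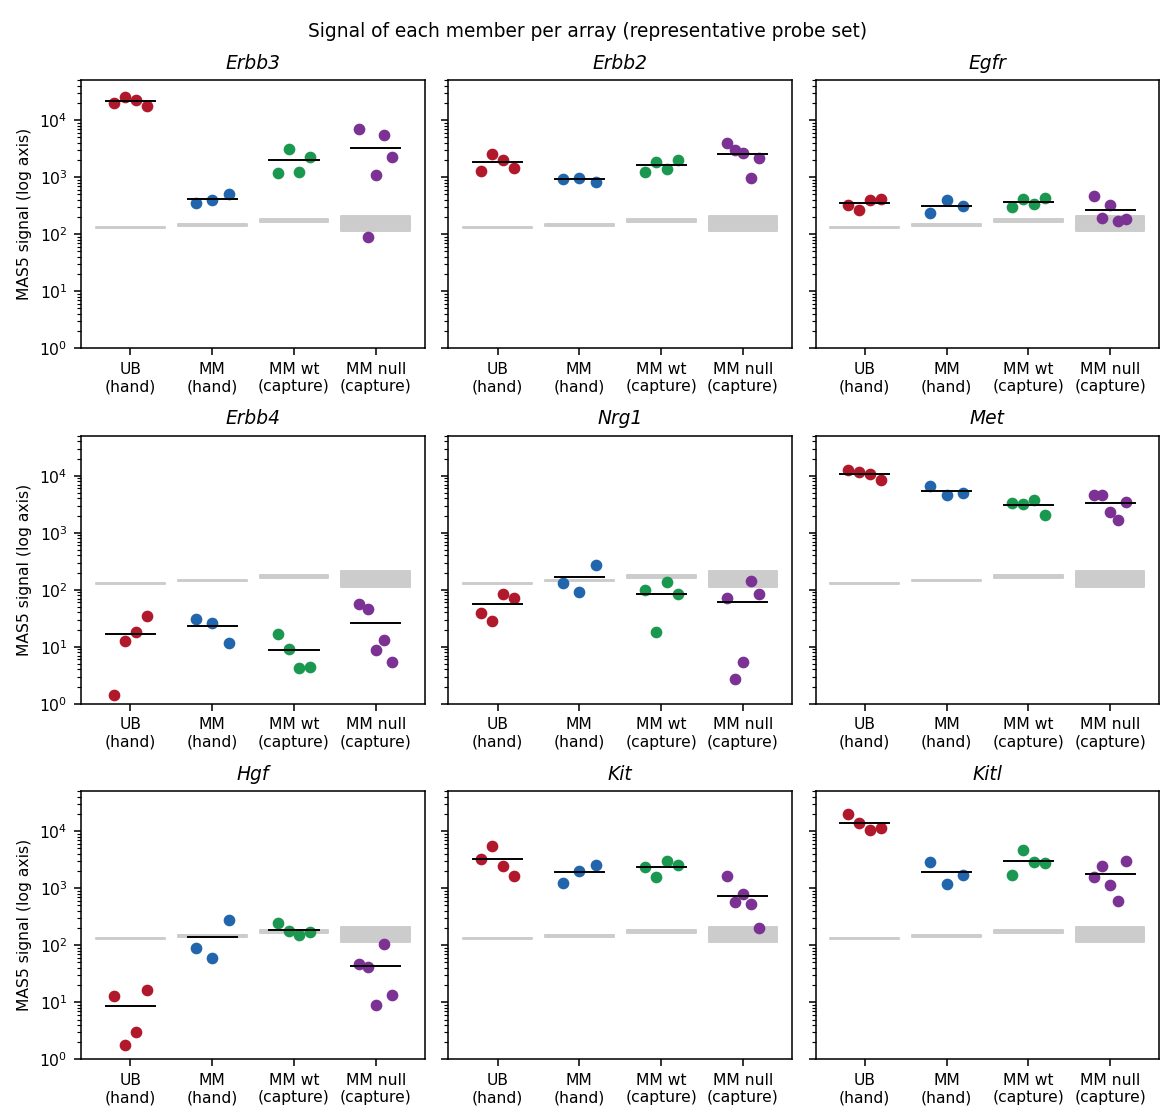
Each panel plots the MAS5 signal of 1 gene (log axis) in every array of the 4 groups; points are arrays, black lines group means, and grey bands the range of the array medians in that group. Erbb3 reads 17563 to 25162 in the bud and 347 to 500 in hand-dissected mesenchyme, while Erbb4 lies below the array medians throughout.

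Genes of the wider pathway were read from a list of 106, of which 96 had a probe set of their own and 84 were bright enough to test between bud and mesenchyme. Of these, 23 were higher and 16 lower in the bud. In 4 of the 23, Cdh1, St14, Tmprss2 and Nrg3, every mesenchyme array was below its own median, so they entered the test only through the bud arrays and their fitted differences rest on dim values. For them a lower limit is given, with the array median in place of a dimmer mesenchyme value. Of the 16, Mst1r, the receptor for macrophage-stimulating protein, was dim in the same way in the bud; it was named after its values were seen. The called share can be set beside the 28.5% of all tested genes, and the median log2 difference was -0.14 for the list and 0.01 for all tested genes. The list describes the setting of the 9 genes and was not tested as a set.

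Of the 6 tested genes for activation of pro-HGF, 3 were higher and 2 lower in UB, and 2 further ones were too dim to test. St14, which encodes matriptase, averaged 7875 ± 1506 (SD, n = 4) in UB but 88.9 ± 20.6 (SD, n = 3) in MM (fitted log2 difference 5.98 ± 0.23 SE, at least 5.42). Tmprss2, another membrane serine protease, differed by 5.28 ± 0.23 SE (at least 5.13) and Hpn, which encodes hepsin, by 2.71 ± 0.25 SE. Both tested inhibitors of these proteases were higher in the bud, Spint1 by 4.64 ± 0.27 and Spint2 by 3.64 ± 0.20 SE. Plat, the tissue plasminogen activator, went the other way, at 242 ± 36.8 in UB and 10357 ± 1994 in MM (-5.21 ± 0.23 SE). For these 6 genes the highest limma adjusted p was 1.02e-05.

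Of 7 tested ErbB ligands besides Nrg1, 4 were higher in the bud and 0 lower. Btc, which encodes betacellulin, had a mean of 881 ± 258 in UB against 195 ± 79.0 in MM (higher by 2.00 ± 0.30 SE in log2, limma adjusted p = 0.000414). Nrg3, a neuregulin for ErbB4, was 270 ± 90.0 in UB and dim in MM, at 8.7 to 66.7, so the fitted 1.99 ± 0.36 SE (adjusted p = 0.00181) comes down to at least 0.70. The others, named after their values were seen, were Tgfa (1.24 ± 0.28 SE) and Hbegf (0.83 ± 0.24 SE), and the other tested probe sets of these 2 genes were not called. Of the genes for ligand shedding, 2 of 6 were lower in UB and 0 higher: the metalloprotease Adam12 (-2.31 ± 0.28 SE) and Rhbdf2, a regulator of the sheddase ADAM17 (-2.29 ± 0.45 SE).

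Among adaptors and effectors, 3 were higher and 6 lower of 28 tested. Grb7, an adaptor that binds activated ErbB receptors, was higher in UB (9846 ± 2246 against 459 ± 115, log2 difference 4.31 ± 0.25 SE). Pik3r1, the regulatory subunit of PI3K, was lower (-1.92 ± 0.26 SE). Of its 2 other tested probe sets, however, 1 passed with the reverse sign and 1 was not called. Of 6 tested Met relatives and partners, 4 were higher and 2 lower. Cdh1, the epithelial cadherin that sits with Met at cell junctions, was higher by 7.07 ± 0.32 SE against dim mesenchyme values of 4.1 to 52.9, or by at least 5.51. Sema4d, a semaphorin whose receptor plexin-B1 can associate with Met, was higher by 2.54 ± 0.21 SE. Cd44, a co-receptor for HGF and Met, was lower (-2.62 ± 0.35 SE).

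Response and feedback genes of the MAPK pathway had 6 higher and 1 lower of 15 tested in UB. Etv4, an ETS transcription factor, was higher by 2.88 ± 0.43, Spry1, a feedback inhibitor, by 2.31 ± 0.17, the cyclin Ccnd1 by 1.68 ± 0.16 and the phosphatase Dusp4 by 1.52 ± 0.16 SE. Several of these respond to other receptors of the bud as well, Ret among them, and which receptor acts was not measured. Of 6 tested Kit regulators 2 were lower and 0 higher, led by Tal1, a transcription factor of blood progenitors (-1.77 ± 0.33 SE). Of 8 ErbB inhibitors, 1 was higher and 1 lower. The limma adjusted p of the genes named here ranged up to 0.00312, apart from Tgfa (0.00741) and Hbegf (0.0261).

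**Figure D2:**
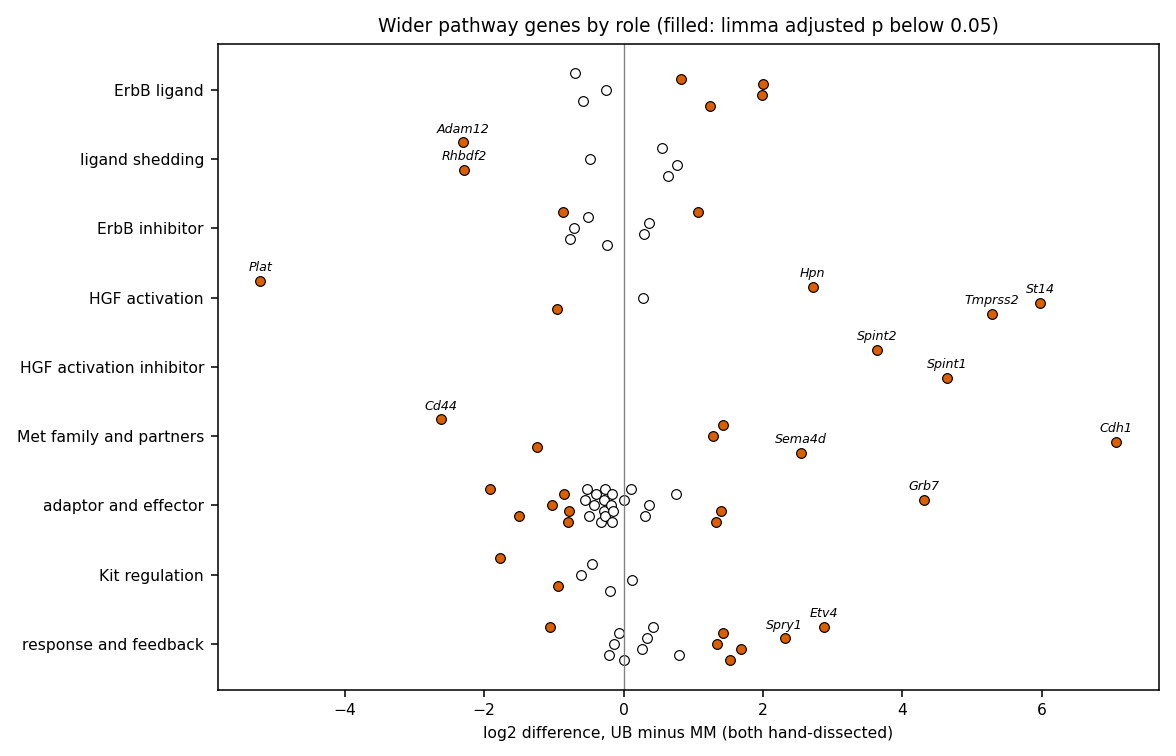
Each point is a tested gene of the wider pathway list, placed by its log2 difference between UB and hand-dissected MM (x axis) and its role (y axis); filled points had a limma adjusted p below 0.05. Differences are as fitted, dim mesenchyme values included. The proteases St14 and Tmprss2 and the inhibitors Spint1 and Spint2 lie at 3.64 to 5.98, and Plat lies at -5.21.

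In the null captures against the wild-type captures, 0 of the 6 tested genes of the 9 passed with limma, where 1.74% of all 12161 tested genes did, 0.748% higher and 0.995% lower in the null. At an unadjusted p below 0.05 there was 1 of the 6, Kit, against 19.1% of all tested genes. Every null sample differs from the wild type in starting piece as well as genotype, so these cannot be told apart. Pooling may differ too, since no number pooled is recorded here for the null samples.

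Kit had the largest difference. Null captures 1 to 5 read 1650, 570, 781, 521 and 198, and wild-type captures 1 to 4 read 2354, 1575, 3059 and 2591. Null replicate 1 lay just above wild-type replicate 2, and the other null captures were below all wild-type captures. The means were 744 ± 548 (SD, n = 5) and 2394 ± 620 (SD, n = 4). The log2 difference was -1.88 ± 0.48 SE, with a 95% interval from -2.93 to -0.84 (limma adjusted p = 0.0737). Without null replicate 1 the log2 difference was -2.23 and passed (adjusted p = 0.00975), and without null replicate 5 it was -1.52 (adjusted p = 0.079). Over 20 alternatives it ran from -2.23 to -0.99, the latter over the mean of both probe sets, with an adjusted p from 0.00975 to 0.234 that passed in 3. These 3 were array weights, all 16 arrays in 1 fit and the omission of null replicate 1. Each also raised the calls over all probe sets, to 1654, 1868 and 1809 against 411 in the main fit. The second Kit probe set, dim at 49.7 to 331 over all arrays, was not tested here and overlapped between the groups.

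Markers of cells known to carry Kit were read on the same arrays. The summed signal of 7 blood progenitor and mast cell markers was 5441, 4016, 3945, 9591 and 7308 in null captures 1 to 5 and 4215, 10142, 23952 and 19514 in wild-type captures 1 to 4, with 4 to 5 of the 7 above the array median. Cd34 read 686 to 2005 in null and 1210 to 10325 in wild-type captures, and Gata2 1325 to 4934 and 1996 to 9514. Tal1 read 182 to 5059 and 400 to 3078, and Ptprc 3 to 1224 and 240 to 1446. Runx1 read 111 to 308 and 151 to 282. All of these ranges overlap, and Gata2 was also 2365 to 4793 in UB. The mast cell genes Cpa3 and Cma1 stayed at 7.1 to 167 in all captures. Melanocyte markers summed to 1012 to 3772 in null and 1112 to 1597 in wild-type captures, and the genes differed. Tyr and Tyrp1, which define pigment cells, stayed at or below 134.5 in all captures, and Mitf read 127 to 1200 in the null and 519 to 1012 in wild-type captures. Dct reached 586 and 1058 in null captures 1 and 5, against at most 256 in the wild type. Pmel read 1752, 900 and 619 in null captures 1 to 3, against at most 494. Of 4 germ cell markers at most 1 exceeded the array median in any capture. Macrophage markers, a blood lineage that shares progenitors with Kit-bearing cells, summed to 12592, 1253, 6344, 4497 and 2546 in null captures 1 to 5 and 9562 to 21109 in the wild type. Null replicate 1 alone lay within the wild-type range. Of these 5 markers Tyrobp (75.9 to 708 against 1104 to 2104) and Laptm5 (191 to 1730 against 2525 to 6197) did not overlap. The others overlapped: Csf1r (60.1 to 9678 against 4764 to 10467), Cd68 (130 to 1021 against 432 to 984) and Adgre1 (87 to 607 against 446 to 1690). Among all tested genes 5.77% did not overlap with the null lower. Other lists ran differently. Erythroid markers summed to 2962 to 8950 in the null captures and 2256 to 20146 in the wild type, which overlap. Endothelial markers summed to 6368 to 19259 and 11697 to 26030, which also overlap, and null replicate 1 was the lowest. The part of any of these cells in the Kit difference was not tested.

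Kitl read 1581, 2455, 1136, 602 and 3052 in the null captures and 1692, 4765, 2863 and 2729 in the wild-type captures. The ranges overlap, and the log2 difference was -0.87 with a 95% interval from -1.85 to 0.11 (limma adjusted p = 0.324). Its next probe set differed by -0.70 ± 0.55 SE (adjusted p = 0.534).

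Erbb3 was the most variable of the 9 genes in the null. Null captures 1 to 5 read 6926, 88.6, 1092, 5492 and 2293, and wild-type captures 1 to 4 read 1205, 3114, 1241 and 2299. Null replicate 2 was below and null replicates 1 and 4 above all wild-type captures. The log2 difference of -0.15 ± 0.97 SE had a 95% interval from -2.28 to 1.97, so a difference of several fold in either direction would not be detectable with these arrays. Its sign turned after quantile normalization (0.01) and median centring (0.15), and without null replicate 2 it was 0.78 (adjusted p = 0.516).

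Erbb2 read 3964, 2981, 2616, 958 and 2132 in the null captures and 1228, 1857, 1394 and 1961 in the wild-type captures (log2 difference 0.53, 95% interval -0.27 to 1.33). Met read 4570, 4682, 2305, 1699 and 3400, and 3341, 3246, 3780 and 2010 (0.04, 95% interval -0.67 to 0.75). Both overlap, and neither passed (limma adjusted p = 0.468 and 0.959).

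Egfr depended on the probe set. The representative one read 468, 188, 322, 172 and 186 in null captures and 304, 421, 338 and 427 in wild-type captures (log2 difference -0.51 ± 0.37 SE, limma adjusted p = 0.491). The next brightest read 142, 46.7, 158, 249 and 296 in null captures and 822, 524, 558 and 370 in wild-type captures. There every null capture was below every wild-type capture, and the log2 difference of -1.59 ± 0.45 SE did not pass (adjusted p = 0.0966). Another probe set was also apart, at 1.9 to 204 and 222 to 445 (-1.49 ± 0.54 SE, adjusted p = 0.174), and the remaining tested one differed by -0.08 ± 0.42 SE. Of all tested genes, 9.03% had arrays that did not overlap in this comparison, 5.77% with the null lower and 3.26% with it higher.

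Hgf read 47.6, 41.1, 9.1, 104 and 13.4 in null captures and 245, 180, 153 and 175 in wild-type captures on its representative probe set. All null captures were below all wild-type captures, but the probe set exceeded the array median on only 2 of these 9 arrays and was not tested. Fitted without the filter, its log2 difference was -1.61 ± 0.42 SE (limma adjusted p = 0.113). In a single fit of all 16 arrays it was below the threshold (limma adjusted p = 0.0247). It entered that fit only through hand-dissected sample 7 and wild-type captures 1 and 4, the arrays where it exceeded the median. No null capture was among them, so that value lends no weight to a lower level in the null. The other 2 Hgf probe sets overlapped between the groups. Nrg1, at 2.7 to 142 in the null and 17.8 to 136 in the wild type, and Erbb4, at 5.4 to 55.4 and 4.3 to 16.6, were near the bottom of the scale.

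Of the wider list 83 genes were tested, and 1 was higher and 1 lower in the null. Among all tested genes 0.748% were higher and 0.995% lower, so so small a count says little about the list. The lower was Gab2, a docking adaptor used by Kit and other receptors, with a mean of 8149 ± 1998 in null captures and 14235 ± 1317 in wild-type ones (SD), or -0.83 ± 0.18 SE in log2 (limma adjusted p = 0.0433). The higher was Map2k1, the MAPK kinase MEK1, at 11756 ± 767 against 7779 ± 728 (0.60 ± 0.13 SE, adjusted p = 0.0481). Both lie close to the threshold, the other tested Gab2 probe set was not called, and the list's count went to 0 under several alternatives. The median of the list was -0.23 and that of all tested genes -0.10.

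**Figure D3:**
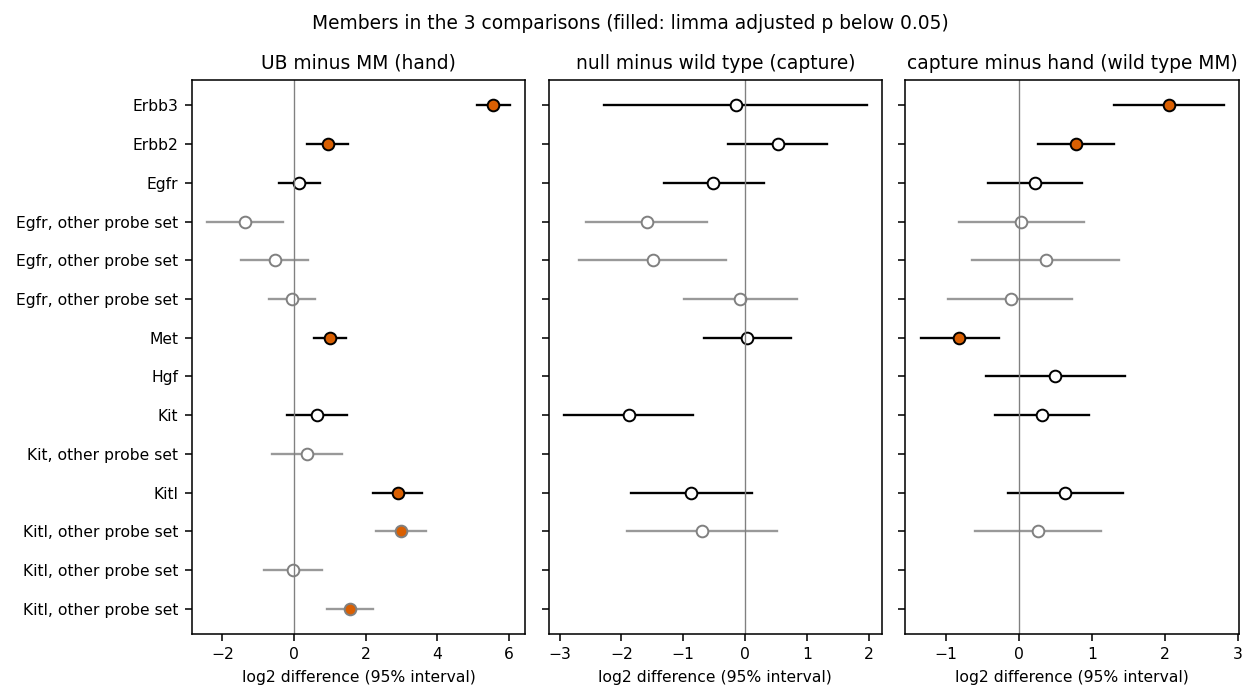
Points give the log2 difference of each tested probe set of the 9 genes in the 3 comparisons, with its 95% interval (x axis; each panel has its own range); filled points had a limma adjusted p below 0.05, and grey outlines mark probe sets other than the representative one. Filled points are Erbb3, Erbb2, Met and 3 Kitl probe sets in the first panel, none in the second, and Erbb3, Erbb2 and Met in the third. The dimmest of the filled Kitl probe sets was below the median of every hand-dissected MM array.

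Wild-type mesenchyme was also sampled in both ways. Capture and dissection differ together in pooling, collagenase and bud transcript content, and these cannot be told apart. This comparison shares the hand-dissected arrays with the first and the captured wild-type arrays with the second, so its values are not independent of theirs. Of 7 tested genes, Erbb3 and Erbb2 were higher and Met lower in the captures, where 23.5% of all 12172 tested genes were called, 13.6% higher and 9.88% lower. The arrays of these 3 genes did not overlap, as for 34.1% of all tested genes, 19.5% with the captures higher and 14.7% with them lower.

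Erbb3 averaged 1965 ± 919 (SD, n = 4) in captures and 414 ± 77.9 (SD, n = 3) in hand-dissected mesenchyme, a log2 difference of 2.05 ± 0.34 SE (limma adjusted p = 0.00226). The lowest capture, at 1205, was above the highest dissected sample, at 500. Erbb2 differed by 0.78 ± 0.24 SE (adjusted p = 0.0350) and Met by -0.81 ± 0.24 SE (adjusted p = 0.0326). Erbb2 missed the threshold in 9 and Met in 8 of 16 alternatives. Among them were the omission of capture 2, capture 4, dissected sample 5 or dissected sample 7 for both genes, and of dissected sample 6 for Erbb2. Without 1 of these arrays the adjusted p was 0.0626 to 0.128 for Erbb2 and 0.0573 to 0.113 for Met. Median centring, which shifts this comparison by 0.20, left Erbb2 at 0.58 (adjusted p = 0.102).

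The other genes did not pass. Kitl differed by 0.63 (95% interval -0.15 to 1.42), Kit by 0.32 (-0.33 to 0.96), Egfr by 0.22 (-0.42 to 0.87) and Hgf, tested in this comparison, by 0.50 (-0.45 to 1.45). The order of group means was UB, wild-type capture, hand-dissected MM and null capture for both Kit and Kitl. In that order captured and dissected wild-type MM did not differ beyond their spread, and dissected MM was not tested against null captures. For Erbb3 it was UB, null capture, wild-type capture and hand-dissected MM, with the captures not told apart.

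Bud markers were read beside Erbb3 and Kitl in the captures. Taking the excess over hand-dissected MM as a percent of the excess in UB, Erbb3 was at 3.79%, 12.9%, 3.96% and 9.03% in wild-type captures 1 to 4. The median of 10 bud markers was at 7.44%, 14.9%, 3.87% and 16.9% in the same arrays, and Erbb3 lay within the range of the markers in each. Kitl was at -1.95%, 23.4%, 7.69% and 6.59%. It lay below all markers in captures 1 and 4 (lowest 1.26% and 8.25%), above all in capture 3 (highest 6.97%) and within their range in capture 2. In null captures 1 to 5 Kitl was at -2.87%, 4.33%, -6.53%, -10.9% and 9.25%. There it was below all markers in replicates 1, 3 and 4 (lowest -0.79%, -1.03% and -6.92%) and within their range in replicates 2 and 5. In the null captures 1 to 5 Erbb3 was at 31.2%, -1.56%, 3.25%, 24.3% and 9.00%, and the bud marker median at 6.89%, 5.10%, 1.23%, 4.06% and 17.4%. Null replicates 1 and 4 thus held more Erbb3 than any bud marker did (highest 23.8% in both), and null replicate 2 less than all of them (lowest -1.30%).

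The same null replicates 1 and 4 had the highest sums of neural crest and glia markers, a lineage in which Erbb3 is known to act, at 11656 and 32647 against 3895 to 4248 in the other null captures and 2994 to 8564 in the wild-type captures. Fabp7, a glial fatty acid binding protein, read 3620 and 5914 in them, and the neuronal RNA-binding gene Elavl4 read 5082 and 8918. The sums rest on different genes: Ednrb, an endothelin receptor, was 17546 in null replicate 4 but 2733 in null replicate 1, with 1403 to 2862 in the other null captures. It was 8888 to 16917 in UB and made up most of the sum there. Foxd3, an early crest factor, was 23.7 in null replicate 1 and 196 in null replicate 4. Sox10, which defines crest-derived glia, stayed at 42.1 to 223 in all captures, and 5 of the 8 listed markers were measured. Their sum was also high in UB, at 9348 to 17551. Whether bud or neural crest cells supply the Erbb3 of the captures was not tested.

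**Figure D4:**
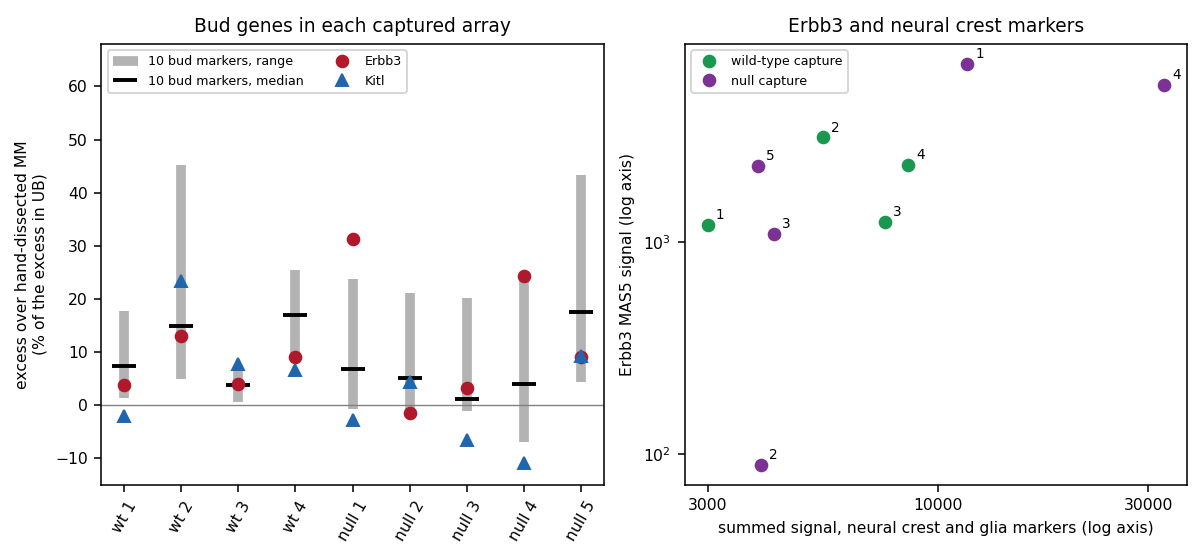
The left panel gives, for each captured array, the excess of Erbb3, Kitl and 10 bud markers (median and range) over hand-dissected MM, as a percent of the excess in UB. The right panel plots Erbb3 signal against the summed signal of the neural crest and glia markers (both log axes), numbered by replicate; null replicates 1 and 4, at 6926 and 5492, lie at the upper right.

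In the wider list 85 genes were tested, with 9 higher and 17 lower in captures. Among all tested genes 13.6% were higher and 9.88% lower. Higher were the bud-side genes Cdh1 (fitted log2 difference 3.50 ± 0.50 SE, at least 1.93 given the dim dissected values), St14 (1.96 ± 0.48 SE, at least 1.40), Tmprss2 (1.60 ± 0.51 SE, at least 1.45), Spint1 (1.77 ± 0.30 SE) and Spint2 (1.19 ± 0.35 SE), together with Stat5b (0.91 ± 0.30 SE) and the MAPK kinase Map2k2 (0.84 ± 0.21 SE). Of 16 tested response and feedback genes, 5 were lower and 0 higher. Egr1, an immediate-early factor, was 2513 ± 539 in captures against 42569 ± 15303 in dissected mesenchyme (-4.01 ± 0.26 SE), and Dusp6, the ERK phosphatase, 11192 ± 1286 against 28847 ± 3845 (-1.36 ± 0.14 SE). Ier3, Phlda1 and Spred1 were lower by between -1.32 and -0.84. Errfi1, an inhibitor that binds active EGFR, was lower as well (-0.89 ± 0.17 SE). Of 29 tested adaptors and effectors 10 were lower, among them Pik3r1 (-2.14 ± 0.30 SE), Braf (-1.06 ± 0.22 SE), Src (-0.94 ± 0.25 SE), Gab2 (-0.90 ± 0.13 SE), Crkl and Map2k1, and of 6 Kit regulators Socs6 was. For Braf 1 other probe set passed with the reverse sign and 4 were not called. The other tested probe sets of Spred1 (6), Socs6 (2), Pik3r1, Crkl, Map2k2, Tmprss2 and Spint2 (1 each) were not called either. In the same direction passed the other one of Src and 1 of 2 for Gab2. Calls of the former genes thus rest on a single probe set. The limma adjusted p of the genes named here ranged up to 0.0454, and the list's median was -0.18 against 0.08 for all tested genes.

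The genes whose signals ran most like those of the 4 genes called in the bud were found among 13502 other genes by Pearson's r of log2 signals over the 16 arrays. For Erbb3 they were Capn5 (r = 0.955), Stard10 (0.942) and Cdc25b (0.942). For Kitl they were Rasgrf2 (0.950), Bid (0.938) and Akr1c19 (0.936). Erbb2 ran most like Zdhhc20 (0.926), Tm9sf2 (0.904) and Ighmbp2 (0.897), and Met like Ptbp3 (0.916), Sh3bgrl2 (0.895) and Gm16793 (0.895). These correlations describe arrays that share 2 tissues and 2 isolation methods, which alone can set such values.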

How the data were processed

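Each sample's RNA went through 2 rounds of amplification and onto 1 Affymetrix MOE430_v2 array, per the labels' protocols. The deposited intensity values are linear MAS5 signals, per the submitters' processing notes; no detection calls were used here. The authors had scaled them: the mean after removal of 2% of values at each tail was 1500 on every array, read from the values. Array medians ran from 112.7 to 209.2, and both extremes were null captures. Null replicate 1 was at 209.2 and null replicates 2 to 5 at 112.7 to 128.9, against 162.8 to 182.3 in the wild-type captures. The number of arrays limits the precision. Of 45101 probe sets, 64 controls were removed; 34945 had 1 gene symbol in the platform annotation, 932 several and 9160 none, and only the first were named.

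Signals were taken as log2(signal + 36.3), the offset being the 25th percentile. Probe sets were tested where the number of arrays with a signal over the array's median reached the size of the smaller group. Each comparison was fitted on its own arrays with limma 3.58.1 in R 4.3.3 (lmFit, eBayes with intensity trend; two-sided; Benjamini-Hochberg over all tested probe sets, threshold 0.05), checked on simulated data. SE are moderated, SD is between arrays. Figures used matplotlib 3.10.9 in Python 3.11.15.

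Named were all 9 genes, up to 20 called genes of the wider list per comparison by size, marker genes, and the 3 genes most alike to each gene called in UB. The 9 genes and the lists were chosen with earlier results of these data known. Alternatives covered offset, floor, normalization, filter, array weights, arrays fitted, variance trend, probe set averaging, the replicate number and each array left out. Same-numbered null and wild-type captures did not deviate together (r from -0.047 to 0.074), so they were not paired.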

Additional observations from a re-analysis of the deposited data

How the results depend on the processing

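Between bud and hand-dissected mesenchyme, Erbb3 (log2 difference 2.40 to 5.70) and Kitl (1.86 to 3.22) kept direction and call in all 17 alternatives, and Met in 16 and Erbb2 in 12 of 17. Egfr ran from -0.03 to 0.32 over single arrays left out. Between null and wild-type captures, the 0 called genes of the 9 became 1 with array weights and 0 to 1 with single arrays omitted. With all 16 arrays in 1 fit they became 2, Kit and Hgf. The filter otherwise removes Hgf, which entered that fit through wild-type arrays alone. The 2 called genes of the wider list became 1 after quantile normalization or median centring (which moves all values by 0.30), 5 with array weights, 6 with all 16 arrays, 0 without the filter, without the trend or over the mean of all probe sets, 1 without null replicates 4 and 5 (chosen after seeing the data), and 0 to 5 with single arrays left out. Over all probe sets, calls went from 411 of 23387 to 1654 with array weights and 1868 of 27335 with all 16 arrays. They were 402 after quantile normalization, 207 after median centring, 256 of 45037 without the filter and 215 without the trend. The mean of all probe sets gave 104 of 9400 genes, and the omission of null replicates 4 and 5 gave 500. Single omissions gave 60 to 1809. With the replicate block, which rests on a shared number alone, 0 of the 9 genes and 0 of the wider list were called and 53 probe sets in all against 411. Null replicate 1 correlated better with wild-type replicate 4 (0.111) than with its own number (-0.005). Signs turned for Erbb3 (0.01 after quantile normalization, 0.15 after median centring, -0.67 to 0.78 with single arrays left out) and Met (-0.02 with array weights, -0.09 over the mean of probe sets, -0.15 to 0.25). Between captured and dissected mesenchyme the 3 called genes became 1 without the filter or over the mean of probe sets, 0 with all 16 arrays, and 1 to 3 with single arrays left out. The wider list's 26 became 14 with all 16 arrays or over the mean of probe sets, and 14 to 25 with single arrays left out. Over all probe sets, calls went from 5866 of 23612 to 4731 of 45037 without the filter and 2614 of 27335 with all 16 arrays. The mean of probe sets gave 1795 of 9468 genes, and single omissions gave 3384 to 5994 probe sets. Signs turned for Egfr (-0.09 after quantile normalization) and Hgf (-0.02 with array weights). The cause was not tested, except that filters and omissions change how many probe sets and arrays enter. None of the 27 groups of 4 or 5 values of the 9 genes held an array apart from the rest by Dixon's test.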

Other observations

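The null captures differed among themselves in markers of neighbouring tissue that stayed low in the wild-type captures. Null replicate 5 read 3089 for Nr5a1, a factor of the gonad and adrenal gland, 4802 for Lhx9 and 8010 for Upk3b, where wild-type captures ran from 22.2 to 33.7, 26.1 to 58.3 and 9.0 to 78.3. Of the other 2 markers of the coelomic and gonad list, Gata4 read 471 there against 68.6 to 183 in the wild type, and Msln 92.4 against 15.1 to 50.1. Adrenal markers summed to 473 in that array, within the 258 to 618 of the other null captures. The same array had the lowest Kit signal, at 198, and the highest Kitl signal of the null captures, at 3052.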
